A study of Mus musculus with 10 samples.

Results

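The genes described here are 10 endothelial genes of the liver, chosen by symbol from the table of gene counts: Stab1, Stab2, Lyve1, Clec4g and Oit3, which mark sinusoidal endothelial cells, the VEGF receptors Kdr and Flt1, and the secreted Wnt-pathway ligands Wnt2, Wnt9b and Rspo3. All 10 were found among the 55291 genes of the table, and all 10 were among the 17015 genes with enough counts to be tested. They were followed in bulk RNA-seq of 10 livers from female Cas9 mice aged 16 to 20 weeks. All mice carried Lox-Stop-Lox Cas9 and received an AAV8 virus with a U6-driven guide and with Cre under the hepatocyte promoter TBG, the guide being either a non-targeting control (NTC) or one against Bap1 (sgBap1). On day 10 after the virus they were injected with carbon tetrachloride (CCl4, diluted in olive oil) or with olive oil as vehicle (Veh), and RNA of the right lobe was taken 48 h later. The 4 groups were NTC-Veh (n = 2), sgBap1-Veh (n = 2), NTC-CCl4 (n = 3) and sgBap1-CCl4 (n = 3). Cre was driven in hepatocytes, so the endothelial cells were not the cells in which the guide was meant to cut.

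Sinusoidal endothelial cells line the capillaries of the liver lobule with a fenestrated wall and clear waste macromolecules from the blood through scavenger receptors. Together with the endothelium of the central vein they secrete WNT2, WNT9B and RSPO3, which keep the Wnt/β-catenin programme switched on in the hepatocytes around that vein. CCl4 is turned into a toxic radical by CYP2E1, an enzyme of the same pericentral hepatocytes, and the resulting injury is centred there. VEGF made by hepatocytes and other cells acts on the endothelium through KDR and is also bound by FLT1.

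Each library held 33047900 to 52199900 estimated counts. Values are library-scaled counts (CPM) after scaling by the trimmed mean of M-values (TMM). Fold changes, standard errors (SE) and p-values come from edgeR's quasi-likelihood test with Benjamini-Hochberg adjustment over the 17015 genes. A gene is called at an adjusted p under 0.05. TMM factors were 0.786 to 0.851 in the vehicle livers and 1.08 to 1.24 in the CCl4 livers. With library size alone as the scaling, the median change of all genes with CCl4 (log2) moved from 0.028 to 0.502 in NTC livers and from 0.039 to 0.5201 in sgBap1 livers. Small changes with CCl4 therefore depend on the scaling. One library stood apart, sgBap1-CCl4 replicate 2, in which the fat cell genes Adipoq, Plin1, Retn, Cfd and Lep summed to 233 CPM against at most 0.0376 CPM in any liver of the other 3 groups. Bap1, the targeted gene, was at 34.8 and 34.8 CPM in the NTC-Veh livers, 17.5 and 19.5 in the sgBap1-Veh livers, 30.1, 31.5 and 29.5 in the NTC-CCl4 livers and 16.99, 21.8 and 19.1 in the sgBap1-CCl4 livers. It was lower with the Bap1 guide in vehicle livers (log2 fold change -0.91, SE 0.12, edgeR adjusted p = 0.0172) and in CCl4 livers (log2 fold change -0.65, SE 0.095, edgeR adjusted p = 0.0307). These calls were kept in 13 and 8 of 17 other settings, with log2 fold changes of -0.99 to -0.84 and -0.75 to -0.57. The call with vehicle was lost with a replicate block and without NTC-Veh replicate 2 or either sgBap1-Veh liver. The call with CCl4 was lost with library size alone, with the replicate block, with only the groups compared, and without NTC-Veh replicate 1, any NTC-CCl4 liver or sgBap1-CCl4 replicate 1 or 3. The livers are whole tissue, so fewer endothelial cells and less RNA per endothelial cell cannot be told apart.

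All 10 genes lie on the minus strand of the GRCm38 genome in the GENCODE vM21 annotation, namely Stab1 at chr14:31139013-31168641, Stab2 at chr10:86841198-87008025, Lyve1 at chr7:110850607-110863239, Clec4g at chr8:3707064-3720651, Oit3 at chr10:59422958-59441778, Kdr at chr5:75932827-75978458, Flt1 at chr5:147561604-147726011, Wnt2 at chr6:17988940-18030585, Wnt9b at chr11:103727364-103749821 and Rspo3 at chr10:29452416-29535867. Stab1 lies 82.8 kb from the edited gene Bap1 on chromosome 14, and Bap1 is on the opposite strand. Stab1 overlaps Nt5dc2, a gene of the other strand that reached 15.7 CPM, by 112 bases. Of all 50-base stretches of the annotated transcripts, at most 0.112% of those of any of the 10 genes (Flt1) were also found in a transcript of another gene, read in the same direction. Overlap with transcripts of the other strand was not part of this count. By gene bounds Stab2, Clec4g and Rspo3 also overlap other annotated genes, none of which had enough counts to be tested.

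Promoter sequences are shown for the 2 pairs of related receptors that differed with CCl4, Stab1 with Stab2 and Flt1 with Kdr. They are RefSeq sequences of build GRCm38.p6, minus strand, 5′ to 3′, each the 250 bases before the start that RefSeq gives: chr14:31168642-31168891 for Stab1, chr10:87007943-87008192 for Stab2, chr5:147726012-147726261 for Flt1 and chr5:75978456-75978705 for Kdr. Capitals mark matches, on either strand, to the ETS core GGAA, the GATA core GATAA, the AP-1 element TGANTCA, the cyclic AMP response element TGACGTCA or the TATA box TATAAA, none of which overlapped a match to another of these motifs.
Stab1: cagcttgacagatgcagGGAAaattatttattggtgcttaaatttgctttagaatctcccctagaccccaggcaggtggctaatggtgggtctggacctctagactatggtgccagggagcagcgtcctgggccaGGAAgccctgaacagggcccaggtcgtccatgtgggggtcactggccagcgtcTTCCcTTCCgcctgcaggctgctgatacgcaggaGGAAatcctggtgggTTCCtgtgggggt
Stab2: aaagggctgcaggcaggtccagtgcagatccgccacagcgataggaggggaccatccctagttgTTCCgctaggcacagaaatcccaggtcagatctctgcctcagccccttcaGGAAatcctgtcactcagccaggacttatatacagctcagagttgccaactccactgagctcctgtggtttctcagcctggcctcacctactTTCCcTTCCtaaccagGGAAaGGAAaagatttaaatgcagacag
Flt1: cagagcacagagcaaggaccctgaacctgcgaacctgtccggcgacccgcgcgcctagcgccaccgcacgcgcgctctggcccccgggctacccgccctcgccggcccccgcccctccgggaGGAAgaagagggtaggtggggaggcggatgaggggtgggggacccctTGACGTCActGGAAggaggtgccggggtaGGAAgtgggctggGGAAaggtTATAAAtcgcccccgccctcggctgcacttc
Kdr: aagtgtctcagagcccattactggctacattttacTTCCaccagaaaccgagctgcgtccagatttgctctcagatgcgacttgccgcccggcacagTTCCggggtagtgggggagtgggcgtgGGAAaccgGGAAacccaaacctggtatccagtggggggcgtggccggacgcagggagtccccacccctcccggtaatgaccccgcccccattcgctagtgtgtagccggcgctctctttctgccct
GGAA occurred 6 times each in the Stab1 and Stab2 stretches and 4 times each in those of Flt1 and Kdr, and 93.4% of the 32851 RefSeq promoters hold at least 1 match in the same window. TATAAA occurred 31 bases before the start of Flt1 and in none of the other 3, against 12.4% of all promoters, and TGACGTCA occurred 81 bases before the start of Flt1 alone, against 1.55% of all promoters. GATAA (22.6% of all promoters) and TGANTCA (6.75%) had no match in the 4 stretches. The paralogues also differ in base composition, with 57.2% G and C in Stab1 and 53.2% in Stab2, and 70.4% in Flt1 and 61.6% in Kdr. RefSeq promoters were at hand for 7 of the 10 genes, not for Lyve1, Oit3 and Rspo3.

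Levels can be compared between genes only per length, here as CPM per kilobase of annotated exon. In NTC-Veh livers the highest was Clec4g, a C-type lectin of the sinusoidal wall, at 14.7 ± 4.27 (SD, n = 2). Oit3, a further marker of these cells, Stab2 and Stab1 followed at 6.06 ± 0.593, 5.54 ± 0.442 and 5.34 ± 0.315, Oit3 and Stab2 overlapping each other, and Stab2 and Stab1 likewise. Kdr was at 3.49 ± 0.153, then Lyve1 at 2.48 ± 0.803 and Rspo3 at 2.06 ± 0.163, these last 2 overlapping. Wnt2 at 0.948 ± 0.402, Flt1 at 0.595 ± 0.0405 and Wnt9b at 0.1999 ± 0.109 were the lowest. In NTC-CCl4 livers Stab1 at 8.96 ± 0.266 came next after Clec4g and Lyve1 at 7.52 ± 1.45 moved above Stab2 and Kdr, while Clec4g was still highest at 13.6 ± 0.897 and Wnt9b lowest at 0.281 ± 0.0826. Counted per base of the longest coding transcript instead, Stab1 came next after Clec4g and Flt1 lay above Wnt2 in NTC-Veh livers too.

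The first comparison asked how the sinusoidal genes responded to CCl4 in livers with the control guide. Lyve1, Stab1, Flt1 and Oit3 rose, and Stab2, Clec4g, Kdr and the 3 ligands were not called. With CCl4, 4 of the 10 genes were called, all of them higher, where 53.8% of all tested genes were called, 27.5% higher and 26.3% lower. The levels of the 2 groups did not overlap for 4 of the 10 genes, against 71.7% of all tested genes. In sgBap1 livers CCl4 raised Lyve1, Stab1 and Flt1, and Clec4g and Kdr were called lower. Here 3 of the 10 were called higher and 2 lower, where 56.7% of all tested genes were called, 29% higher and 27.7% lower, and the groups did not overlap for 4 of the 10 against 72.2% of all. With library size alone 6 of the 10 were called higher and none lower in NTC livers, where 49.7% of all genes were called higher and 11.9% lower. In sgBap1 livers 5 were then called higher and none lower, against 50.5% and 13.8% of all genes.

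**Figure D1:**
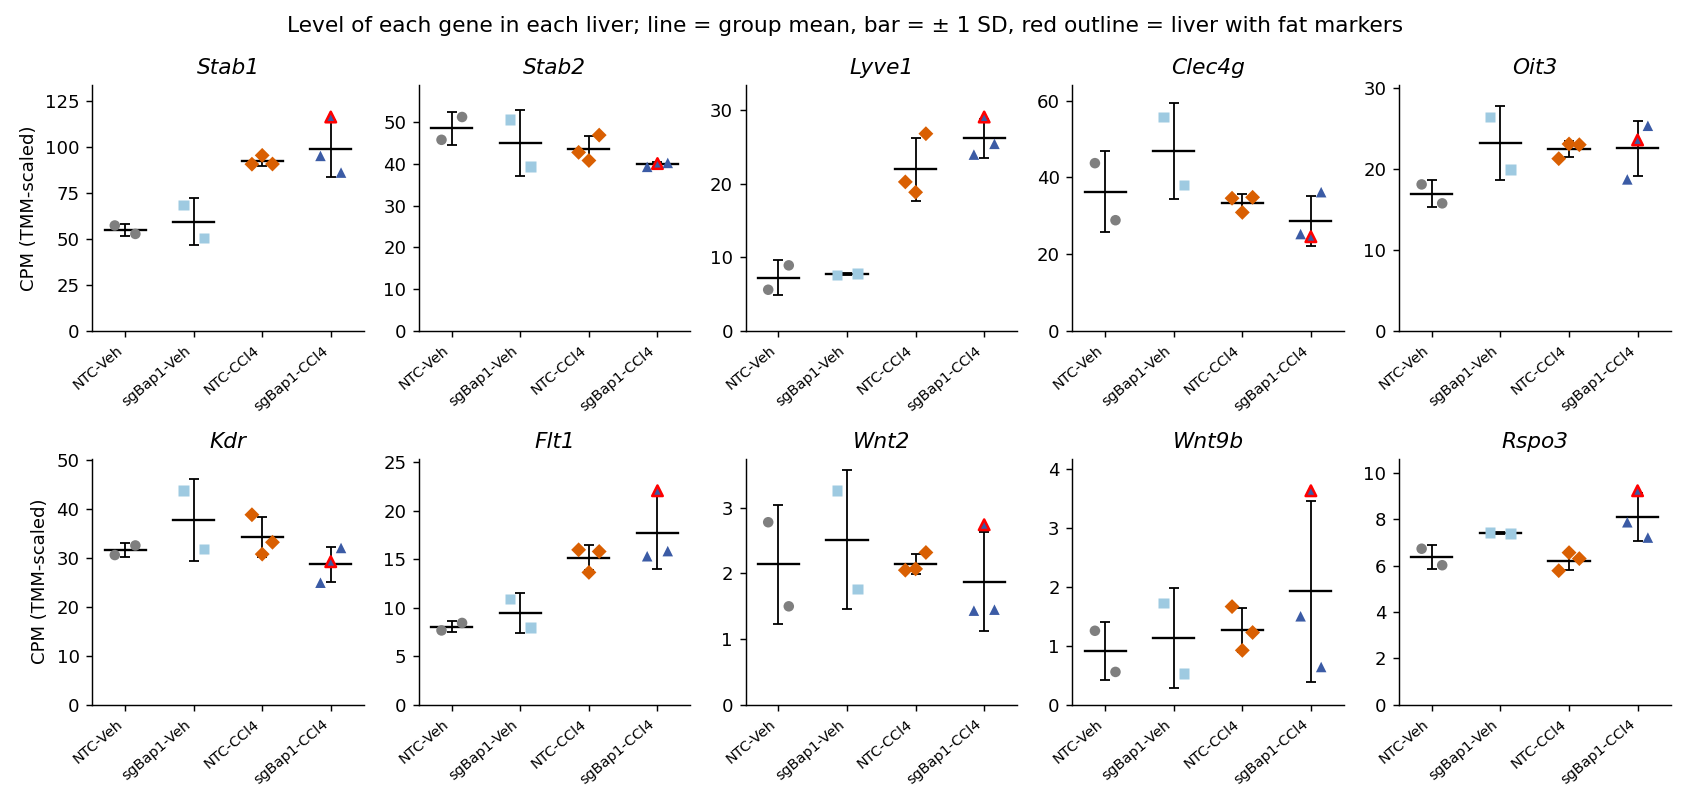
CPM of each gene (vertical axes, linear, from 0) in each of the 10 livers by group, with the group mean as a line, ± 1 SD as a bar and the liver with fat cell genes outlined in red. All 6 CCl4 livers lie above all 4 vehicle livers for Stab1, Lyve1 and Flt1, with Lyve1 at 5.58 to 8.90 CPM without and 18.8 to 29.1 CPM with CCl4.

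Lyve1, a hyaluronan receptor of sinusoidal and lymphatic endothelium, changed most of the 10 with CCl4. It was at 5.58 and 8.895 CPM in the NTC-Veh livers and 20.2, 18.8 and 26.8 in the NTC-CCl4 livers. In sgBap1 livers it was at 7.59 and 7.78 CPM with vehicle and 23.9, 29.05 and 25.4 with CCl4. Every CCl4 liver was thus higher than every vehicle liver, a 3.03-fold difference with NTC (log2 fold change 1.599, SE 0.21, edgeR adjusted p = 0.000143) and a 3.4-fold difference with sgBap1 (log2 fold change 1.77, SE 0.21, edgeR adjusted p = 7.41e-05). The 2 groups with the same treatment overlapped.

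Stab1 encodes stabilin-1, a scavenger receptor of sinusoidal endothelium that some macrophages also make. It stood at 57.2 and 52.7 CPM in NTC-Veh and 90.5, 95.3 and 90.6 CPM in NTC-CCl4 livers, 1.68-fold higher with CCl4 (log2 fold change 0.75, SE 0.15, edgeR adjusted p = 0.0018). In the sgBap1 livers the values were 68.4 and 50.3 CPM with vehicle and 95.03, 116 and 85.96 CPM with CCl4, a 1.67-fold difference (log2 fold change 0.74, SE 0.15, edgeR adjusted p = 0.00183). No CCl4 liver overlapped a vehicle liver. The highest of the sgBap1-CCl4 values was that of the liver with fat cell genes, and without it the log2 fold change was 0.61 (SE 0.13, edgeR adjusted p = 0.00334).

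Stab2, its paralogue stabilin-2 and the main hyaluronan clearance receptor of the liver, showed no such rise. Its levels were 45.8 and 51.3 CPM in NTC-Veh, 42.8, 40.9 and 46.9 in NTC-CCl4, 50.7 and 39.4 in sgBap1-Veh and 39.3, 40.1 and 40.3 in sgBap1-CCl4 livers. The ranges overlapped in both comparisons with CCl4, and the log2 fold changes were -0.16 (95% interval -0.403 to 0.087, edgeR adjusted p = 0.252) and -0.18 (-0.42 to 0.07, adjusted p = 0.2). The upper ends of these intervals lie below the lower ends of those for Stab1, which were 0.41 in both comparisons. Scaled by library size alone, the Stab2 values turned positive, at 0.31 and 0.303, and were not called.

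Clec4g was the only one of the 5 sinusoidal markers called lower. It was at 55.8 and 37.99 CPM in the sgBap1-Veh livers and 25.2, 24.5 and 36.2 CPM in the sgBap1-CCl4 livers (log2 fold change -0.71, SE 0.23, edgeR adjusted p = 0.0248), with no overlap. In the NTC livers it was at 43.7 and 28.8 CPM with vehicle and 34.6, 30.9 and 34.8 CPM with CCl4, overlapping ranges with a log2 fold change of -0.12 (-0.64 to 0.41, adjusted p = 0.692), or 0.37 with library size alone. The difference between these 2 changes was not called (log2 fold change -0.595, SE 0.33, edgeR adjusted p = 0.586). The lower call in sgBap1 livers was lost with library size alone (log2 fold change -0.25, adjusted p = 0.31) and without sgBap1-CCl4 replicate 2 (-0.61, adjusted p = 0.0776), and leaving out sgBap1-CCl4 replicate 1 or sgBap1-Veh replicate 1 also ended it.

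Oit3 rose with CCl4 in the NTC livers, from 18.1 and 15.7 CPM to 21.3, 23.1 and 22.98 CPM (log2 fold change 0.41, SE 0.15, edgeR adjusted p = 0.042), the ranges not overlapping. In sgBap1 livers it was already at 26.4 and 19.9 CPM with vehicle and at 18.7, 23.6 and 25.3 CPM with CCl4, overlapping ranges with a log2 fold change of -0.045 (-0.37 to 0.29), which became 0.43 and was called with library size alone (adjusted p = 0.0337). The call in NTC livers was lost when any 1 of the 5 NTC livers was left out, at adjusted p-values up to 0.234. The difference between the 2 changes was not called (log2 fold change -0.45, SE 0.21, edgeR adjusted p = 0.494).

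Of the 2 VEGF receptors, Flt1 rose and Kdr did not. Flt1 (VEGFR1), which binds VEGFA, VEGFB and PGF and signals weakly, was at 7.65 and 8.42 CPM in NTC-Veh and 15.97, 13.6 and 15.8 CPM in NTC-CCl4 livers, 1.88-fold higher (log2 fold change 0.91, SE 0.19, edgeR adjusted p = 0.00214). In the sgBap1 livers it was at 10.9 and 7.97 CPM with vehicle and 15.3, 22.1 and 15.8 CPM with CCl4, 1.87-fold higher (log2 fold change 0.905, SE 0.19, edgeR adjusted p = 0.00205). Every CCl4 liver was above every vehicle liver, and the highest was again the liver with fat cell genes. Without that liver the log2 fold change in sgBap1 livers was 0.72 (SE 0.15, edgeR adjusted p = 0.00308). Kdr (VEGFR2), the main signalling receptor for VEGFA, was at 30.5 and 32.5 CPM in NTC-Veh and 38.8, 30.7 and 33.2 CPM in NTC-CCl4 livers, with overlapping ranges and a log2 fold change of 0.12 (-0.22 to 0.46, adjusted p = 0.544). In sgBap1 livers it was at 43.7 and 31.8 CPM with vehicle and 24.9, 29.2 and 31.99 CPM with CCl4 and was called lower with TMM scaling (log2 fold change -0.398, SE 0.15, edgeR adjusted p = 0.0459), a direction that turned with library size alone (0.078, adjusted p = 0.7). The highest CCl4 liver lay above the lowest vehicle liver. Without the sgBap1-Veh liver at 43.7 CPM the log2 fold change was -0.14 (adjusted p = 0.497). The call of Kdr was kept in 7 of 17 other settings, whereas the calls of Lyve1, Stab1 and Flt1 were kept in 17 of 17 in both comparisons.

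The 3 ligands were not called in either comparison with CCl4. Wnt2 was at 2.78 and 1.496 CPM in NTC-Veh, 2.05, 2.07 and 2.32 in NTC-CCl4, 3.26 and 1.76 in sgBap1-Veh and 1.43, 2.74 and 1.45 in sgBap1-CCl4 livers. The 2 livers of each vehicle group differed widely, and their range took in all 3 CCl4 livers with NTC and 1 of 3 with sgBap1, the other 2 lying below it. The log2 fold changes were 0.0024 (-0.84 to 0.85, adjusted p = 0.997) and -0.43 (-1.26 to 0.405, adjusted p = 0.352), or 0.49 and 0.067 with library size alone, also not called. Without the liver with fat cell genes the change in sgBap1 livers was -0.81 (adjusted p = 0.0723). By depth, Wnt2 rested on 47 to 160 estimated counts per liver and Wnt9b on 14 to 212, and the intervals of Wnt9b are the widest of the 10. Wnt9b was at 1.25 and 0.554 CPM in NTC-Veh, 1.66, 0.9205 and 1.22 in NTC-CCl4, 1.72 and 0.524 in sgBap1-Veh and 1.498, 3.63 and 0.638 in sgBap1-CCl4 livers, with log2 fold changes of 0.49 (-1.202 to 2.17) and 0.75 (-0.91 to 2.41). The value of 3.63 CPM is that of the liver with fat cell genes, and without it the change in sgBap1 livers went from 0.75 to -0.093 (adjusted p = 0.912).

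Rspo3, which strengthens Wnt signals by removing the ligases ZNRF3 and RNF43 from the cell surface, varied least among replicates of the 3 ligands. It was at 6.72 and 6.01 CPM in NTC-Veh and 5.78, 6.56 and 6.298 CPM in NTC-CCl4 livers, with a log2 fold change of -0.036 (-0.35 to 0.27, adjusted p = 0.845) that became 0.44 and was called with library size alone (adjusted p = 0.0434). In the sgBap1 livers it was at 7.43 and 7.37 CPM with vehicle and 7.87, 9.23 and 7.21 CPM with CCl4, a log2 fold change of 0.13 (-0.18 to 0.44), or 0.62 with library size alone (adjusted p = 0.00833).

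**Figure D2:**
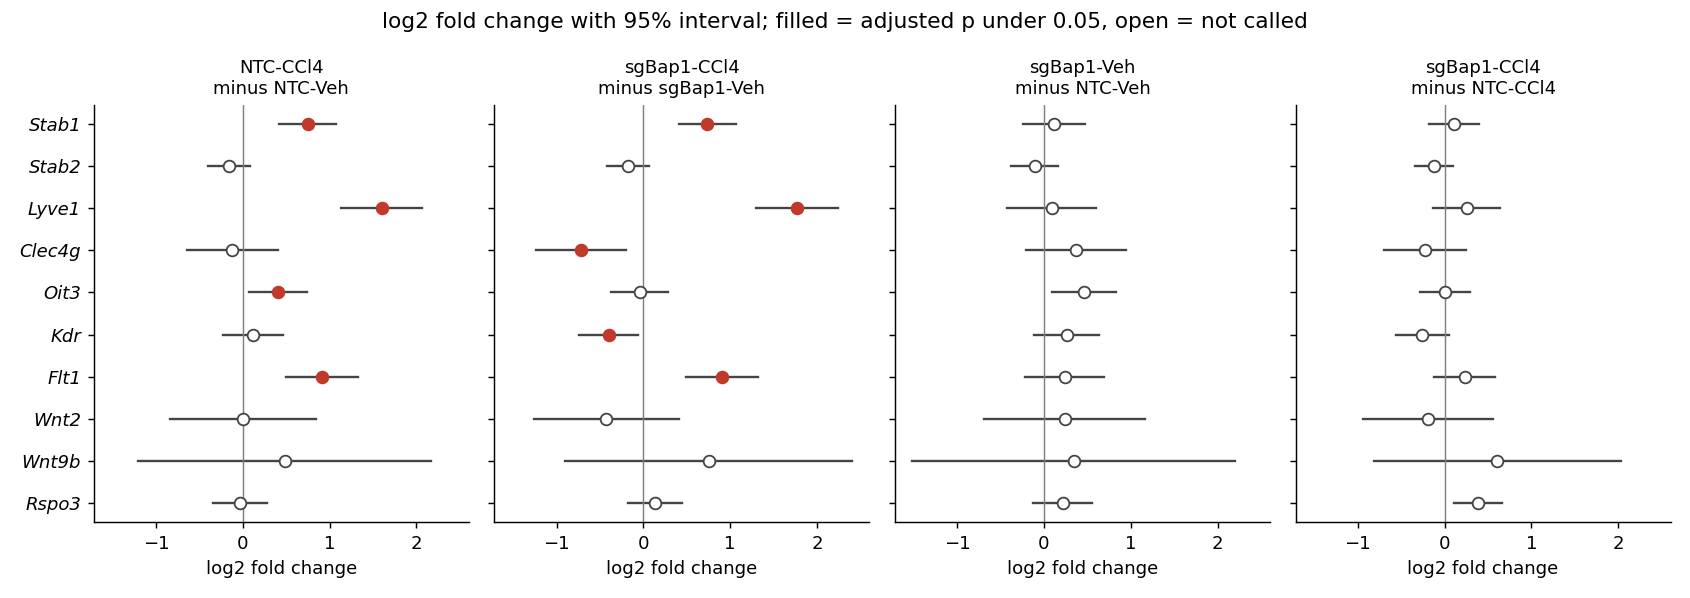
log2 fold change of each gene (horizontal axis) with its 95% interval in 4 comparisons, filled points being called at an adjusted p under 0.05 with TMM scaling. Lyve1 at 1.599 and 1.77, Stab1 at 0.75 and 0.74 and Flt1 at 0.91 and 0.905 are filled in both comparisons with CCl4, the lower calls of Clec4g and Kdr appear in sgBap1 livers and the one of Kdr changes sign with library size alone, and no point is filled in the 2 comparisons of guides.

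The second question was whether the guide in hepatocytes altered these genes. None of the 10 was called between guides with vehicle, where 0.523% of all tested genes were called and 12.6% had an unadjusted p under 0.05, nor with CCl4, where the shares were 0.253% and 13.4%. One of the 10 had an unadjusted p under 0.05 in each of these comparisons, and DESeq2's Wald test called none. With vehicle, 9 of the 10 leaned higher with the Bap1 guide (median log2 fold change 0.24, that of all tested genes 0.02). With CCl4, 6 of the 10 did (median 0.055, that of all 0.0018). The 10 were read in the same livers, so these are not independent results, and the lean was not tested. With vehicle it rested largely on sgBap1-Veh replicate 1. For Stab1, Clec4g, Kdr, Flt1, Wnt2 and Wnt9b only that liver lay above both NTC-Veh livers. Stab1, for example, was at 68.4 CPM there and at 50.3 in replicate 2, against 57.2 and 52.7 in NTC-Veh livers. Both sgBap1-Veh livers lay above for Oit3 and Rspo3, and neither for Lyve1. Oit3 was higher with the Bap1 guide in vehicle livers, at 26.4 and 19.9 CPM against 18.1 and 15.7 CPM (log2 fold change 0.46, SE 0.17, unadjusted p = 0.0192, edgeR adjusted p = 0.272). Rspo3 was higher with the Bap1 guide in CCl4 livers, at 7.87, 9.23 and 7.21 CPM against 5.78, 6.56 and 6.298 CPM (log2 fold change 0.38, SE 0.12, unadjusted p = 0.0106, edgeR adjusted p = 0.215), and at 0.28 without the liver with fat cell genes (adjusted p = 0.504). The sgBap1 livers lay above the NTC livers of the same treatment in every pair of groups for Rspo3, with no overlap in either treatment. Averaged over both treatments, its log2 fold change was 0.30 (0.081 to 0.52, unadjusted p = 0.012, edgeR adjusted p = 0.183), in a comparison where 0.529% of all genes were called and 15.9% had an unadjusted p under 0.05. The groups did not overlap for 2 of the 10 genes with vehicle (Oit3 and Rspo3, both higher), against 40.9% of all genes, and for 2 of the 10 with CCl4 (Rspo3 higher and Stab2 lower), against 20.3%.

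The change with CCl4 was not shown to differ between guides for any of the 10. The interaction term called 0 of the 10 and 0% of the 17015 genes by edgeR, with 10.6% of all genes and 1 of the 10 (Kdr) at an unadjusted p under 0.05, while DESeq2's Wald test called 406 genes and none of the 10. For Kdr the interaction was -0.52 (-0.999 to -0.033, unadjusted p = 0.0385, edgeR adjusted p = 0.434). For Stab1, Flt1 and Lyve1 the differences between the 2 changes were -0.0087 (-0.47 to 0.45), -0.0072 (-0.58 to 0.57) and 0.17 (-0.47 to 0.81) on the log2 scale. With 2 vehicle livers per guide, these intervals still reach as far as -0.47 for Stab1, -0.58 for Flt1 and 0.81 for Lyve1.

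Each gene was also set against genes of endothelium in general. The reference was the mean log2 CPM of 14 genes such as Pecam1 and Cdh5, which are made by endothelial cells of any vessel, and a scaling factor of the library drops out of this ratio. The part of other liver cells in this reference was not tested, so the ratio is not a level per endothelial cell. The reference itself was at 3.38 to 3.51 with vehicle and 3.97 to 4.07 with CCl4 in NTC livers, and at 3.43 to 3.91 and 4.005 to 4.25 in sgBap1 livers. Relative to it, 3 of the 10 genes were higher with CCl4 without overlap in both guides (Lyve1, Flt1 and Stab1), 6 of the 10 were lower in both (Stab2, Clec4g, Oit3, Kdr, Wnt2 and Rspo3), and Wnt9b overlapped. Of all tested genes, 17.8% had higher ratios without overlap and 61.0% lower ones with the NTC guide, and 18.8% and 45.7% with the Bap1 guide.

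Stab1 and Stab2 parted in this ratio. The log2 ratio of Stab1 was 2.33 and 2.34 in NTC-Veh and 2.43, 2.61 and 2.49 in NTC-CCl4 livers, while that of Stab2 went from 2.01 and 2.31 to 1.35, 1.38 and 1.54. In sgBap1 livers Stab1 was at 2.19 and 2.22 with vehicle and 2.56, 2.61 and 2.42 with CCl4, and Stab2 at 1.76 and 1.87 and 1.29, 1.08 and 1.33. Kdr and Flt1 parted in the same way, Kdr from 1.42 and 1.65 to 1.21, 0.97 and 1.04 and Flt1 from -0.57 and -0.29 to -0.069, -0.196 and -0.025 in NTC livers. In sgBap1 livers Kdr was at 1.54 and 1.56 with vehicle and 0.63, 0.62 and 0.997 with CCl4, and Flt1 at -0.46 and -0.43 and -0.072, 0.22 and -0.015. The largest fall in the mean ratio was that of Clec4g in sgBap1 livers (-1.13), followed by Wnt2 (-0.84) and Kdr (-0.80) there, and Rspo3 differed by -0.61 in NTC and -0.30 in sgBap1 livers. With Pecam1 and Cdh5 alone as reference, 9 of the 10 were lower without overlap in NTC livers, against 80.1% of all tested genes, and 8 of the 10 in sgBap1 livers, against 72.8%. The ratios of Stab1 and Flt1 turned lower, at -0.74 and -0.58 in NTC livers and -0.39 and -0.23 in sgBap1 livers. That of Lyve1 was 0.13, with overlap, and 0.62, without. The direction for Stab1 and Flt1 thus depends on the reference. Pecam1 and Cdh5 themselves rose with CCl4 by more than the median of the general endothelial genes with both guides. Genes that rose less than they did therefore lie lower against them.

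**Figure D3:**
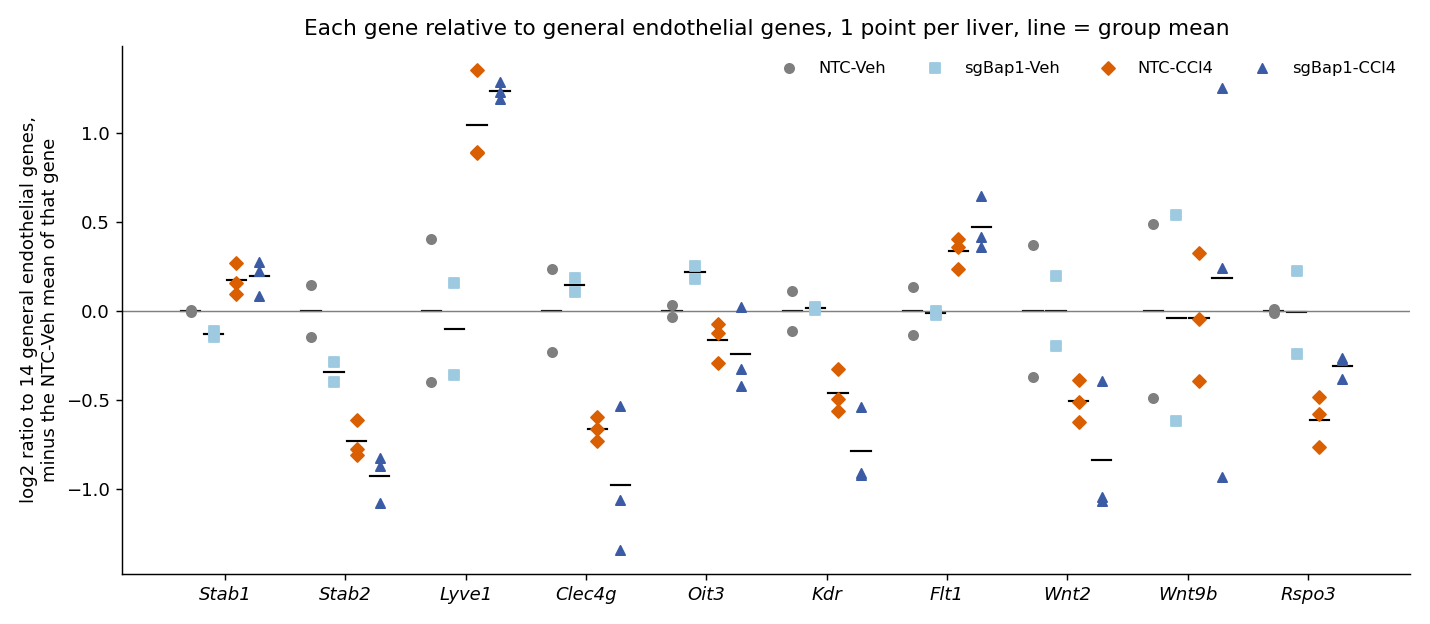
log2 ratio of each gene to 14 general endothelial genes (vertical axis, after subtracting that gene's NTC-Veh mean), 1 point per liver by group with the group mean as a line. Lyve1, Flt1 and Stab1 lie higher in the CCl4 groups, by 1.04, 0.33 and 0.17 in NTC livers, and Stab2, Clec4g, Kdr, Wnt2, Rspo3 and Oit3 lie lower, while with Pecam1 and Cdh5 alone as reference Stab1 and Flt1 lie lower as well.

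Of 11 other sinusoidal markers 6 rose and 1 fell with CCl4 in NTC livers (median log2 fold change 0.34, that of all tested genes 0.03), and in sgBap1 livers 0 rose and 2 fell (median 0.08, that of all 0.04). Scaled by library size alone, 9 rose and 1 fell in NTC livers and 6 rose and 1 fell in sgBap1 livers. For this and the lists below, 27.5% of all tested genes were called higher and 26.3% lower in NTC livers. In sgBap1 livers the shares were 29% and 27.7%. With library size alone they were 49.7% and 11.9% in NTC and 50.5% and 13.8% in sgBap1 livers. The interaction term called none of these 11 genes and none of all genes; 4 of the 11 had an unadjusted p under 0.05 against 10.6% of all genes. It was negative for 10 of the 11, with a median of -0.36 against -0.016 for all genes. Between guides with vehicle, all 11 leaned higher with the Bap1 guide (median 0.34) and none was called. Of the 11, 4 had an unadjusted edgeR p under 0.05 there, against 12.6% of all genes. The vehicle groups did not overlap for Mrc1, Fcgr2b, F8 and Ehd3, while 40.9% of all genes did not overlap. They overlapped for the rest, Gpr182 for one being at 18.9 and 29.5 CPM with sgBap1 against 18.3 and 19.9 CPM with NTC. The interaction holds the same sgBap1-Veh livers, so its negative sign and this lean are not independent results. With CCl4, 4 of the 11 leaned higher with the Bap1 guide (median -0.076). Ehd3, a membrane-trafficking protein of sinusoidal endothelium, fell in both (from 61.8 ± 9.19 to 30.97 ± 1.46 CPM in NTC livers, log2 fold change -0.997, SE 0.11, edgeR adjusted p = 4.79e-05, and log2 fold change -1.31, SE 0.11, edgeR adjusted p = 8.54e-06 in sgBap1 livers). Dnase1l3, a secreted nuclease, was called lower in sgBap1 livers (log2 fold change -0.71, SE 0.18, edgeR adjusted p = 0.00767), a call lost with library size alone (-0.23, adjusted p = 0.285). The rises in NTC livers were led by the Fc receptor Fcgr2b (0.69, adjusted p = 0.00328), the VEGF-C receptor Flt4 (0.598, adjusted p = 0.00856) and coagulation factor F8 (0.55, adjusted p = 0.0113).

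Of 14 general endothelial genes 8 rose and 0 fell in NTC livers (median 0.57) and 6 rose and 2 fell in sgBap1 livers (median 0.37), or 13 and 12 risen with library size alone and no fall. Pecam1, an adhesion molecule of endothelial junctions, went from 14.2 and 11.6 CPM to 32.8, 29.8 and 32.1 CPM in NTC livers (log2 fold change 1.29, SE 0.17, edgeR adjusted p = 0.000122) and rose in sgBap1 livers too (log2 fold change 1.05, SE 0.17, edgeR adjusted p = 0.000388). Cdh5, VE-cadherin, went from 20.01 and 15.4 CPM to 56.7, 45.5 and 69.3 CPM in NTC livers (log2 fold change 1.69, SE 0.25, edgeR adjusted p = 0.000396) and was also higher in sgBap1 livers (log2 fold change 1.17, SE 0.24, edgeR adjusted p = 0.00267). Emcn, a sialomucin of capillaries and veins (0.82 and 1.1998), and the adhesion molecule Esam (0.83 and 0.89) rose with both guides. The 2 called lower in sgBap1 livers, named after their values were seen, were Clec14a (-0.68, adjusted p = 0.00215) and Ptprb (-0.43, adjusted p = 0.0261). With library size alone Clec14a was no longer called (-0.1996) and Ptprb turned to 0.049. Between guides with vehicle, 13 of the 14 leaned higher with the Bap1 guide (median 0.25) and none was called. Of the 14, 4 had an unadjusted edgeR p under 0.05 there, against 12.6% of all genes. The mean log2 CPM of the 14 was 3.91 in sgBap1-Veh replicate 1 and 3.43 in replicate 2. In the NTC-Veh livers it was 3.51 and 3.38, so only sgBap1-Veh replicate 1 lay above both. With CCl4, 10 of the 14 leaned higher with the Bap1 guide (median 0.06).

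Of 10 tested genes of activated or capillary-like endothelium, 8 rose and 0 fell in NTC livers (median log2 fold change 2.26) and 9 rose and 0 fell in sgBap1 livers (median 1.68), with the same numbers higher in NTC livers and 10 in sgBap1 livers with library size alone. Angpt2, an antagonist ligand of the TIE2 receptor, went from 0.653 and 0.527 CPM to 3.48, 3.04 and 4.48 CPM in NTC livers (log2 fold change 2.63, SE 0.25, edgeR adjusted p = 1.4e-05) and from 0.673 and 0.636 CPM to 5.58, 5.07 and 6.36 CPM in sgBap1 livers (log2 fold change 3.11, SE 0.25, edgeR adjusted p = 5.22e-06). Sele, E-selectin, rose from 0.109 and 0.0554 CPM to 0.874, 0.639 and 1.93 CPM in NTC livers and to 1.63, 1.9 and 1.51 CPM in sgBap1-CCl4 livers, and Esm1 and Apln were called higher with both guides at levels of at most 4.29 and 1.08 CPM. Vcam1, a leukocyte adhesion molecule that other liver cells also make, was the only gene of the list called between guides, at 25.2 and 21.3 CPM in sgBap1-Veh against 10.5 and 11.6 CPM in NTC-Veh livers (log2 fold change 1.07, SE 0.17, edgeR adjusted p = 0.0382). The call was kept in 8 of 17 other settings, being lost with library size alone, with the replicate block and without any 1 of the 4 vehicle livers, NTC-CCl4 replicate 1 or 2 or sgBap1-CCl4 replicate 3. With CCl4 it was at 49.6, 49.4 and 62.2 CPM with NTC and 50.1, 69.6 and 62.5 CPM with sgBap1.

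The ligands of the VEGF receptors moved apart. Vegfa, made mostly by hepatocytes in this organ, was at 213 and 209 CPM in NTC-Veh and 111, 92.7 and 97.5 CPM in NTC-CCl4 livers (log2 fold change -1.07, SE 0.13, edgeR adjusted p = 5.54e-05), and 226 and 196 CPM in sgBap1-Veh and 90.8, 74.5 and 95.7 CPM in sgBap1-CCl4 livers (log2 fold change -1.28, SE 0.13, edgeR adjusted p = 1.7e-05). Vegfb (0.57 and 0.68), Vegfc (0.75 and 1.02) and Pgf, a ligand of FLT1 at no more than 0.255 CPM, were called higher with both guides. The list of 8 genes counted here also holds the receptors Nrp1, Nrp2 and Flt4. Of the 8, 4 rose and 1 fell in NTC livers, and 3 rose and 1 fell in sgBap1 livers (6 and 1 with library size alone). Flt4 is among those risen in NTC livers and was already counted above with the sinusoidal markers. Of 11 angiocrine and Notch genes 7 rose and 0 fell in NTC livers and 6 rose and 0 fell in sgBap1 livers (medians 1.11 and 0.96). They include Id1, a transcriptional inhibitor (log2 fold change 2.89, SE 0.23, edgeR adjusted p = 7.07e-06 and log2 fold change 2.63, SE 0.22, edgeR adjusted p = 1.08e-05), and the hepatocyte growth factor Hgf (log2 fold change 1.81, SE 0.21, edgeR adjusted p = 7.08e-05 and log2 fold change 1.91, SE 0.21, edgeR adjusted p = 4.97e-05), which stellate cells make as well.

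Among the other Wnt and R-spondin ligands, 7 of 20 had enough counts to be tested. Wnt4 rose from 1.14 and 3.02 CPM to 6.18, 8.98 and 5.595 CPM in NTC livers (log2 fold change 1.74, SE 0.41, edgeR adjusted p = 0.0057) and Wnt5a from 1.39 and 1.83 CPM to 3.35, 4.28 and 3.46 CPM (log2 fold change 1.201, SE 0.299, edgeR adjusted p = 0.00632), and both rose in sgBap1 livers (1.61 and 1.94, adjusted p = 0.00861 and 0.000531). Both are ligands known mainly for non-canonical signalling. Wnt5b was called lower with both guides (-0.75 and -0.99), a call lost with library size alone, and Wnt9a higher in sgBap1 livers (0.93, adjusted p = 0.0355). Thus 2 ligands rose and 1 fell in NTC livers, and 3 rose and 1 fell in sgBap1 livers.

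Of 16 tested Wnt receptors and secretion factors 1 rose, 7 fell and 8 were not called with CCl4, with either guide, against 5 risen and 4 fallen in NTC livers and 5 risen and 3 fallen in sgBap1 livers with library size alone. Wls, which carries Wnt proteins to the cell surface, was the 1 that rose, from 5.17 and 5.099 CPM to 11.8, 14.7 and 13.6 CPM in NTC livers (log2 fold change 1.38, SE 0.25, edgeR adjusted p = 0.00119) and with sgBap1 as well (1.28, adjusted p = 0.00165). The R-spondin receptors fell in NTC livers, Lgr4 from 68.01 and 66.8 CPM to 33.2, 31.4 and 31.6 CPM (log2 fold change -1.07, SE 0.097, edgeR adjusted p = 1.14e-05) and Lgr5 from 11.2 and 13.6 CPM to 1.94, 3.64 and 3.51 CPM (log2 fold change -2.03, SE 0.25, edgeR adjusted p = 7.43e-05). In sgBap1 livers Lgr4 fell too (log2 fold change -0.98, SE 0.097, edgeR adjusted p = 1.76e-05), while Lgr5 was at 8.45 and 6.21 CPM with vehicle and 5.47, 5.53 and 4.68 CPM with CCl4 (log2 fold change -0.49, edgeR adjusted p = 0.114). The difference between the 2 changes of Lgr5 was 1.54 (unadjusted p = 0.0014, edgeR adjusted p = 0.13). Znrf3, the ligase that R-spondins inhibit, fell with both guides (-0.75 and -0.53, adjusted p = 0.0015 and 0.0113), as did the receptors Fzd4 (-0.62 and -0.77) and Fzd8 (-2.52 and -2.39). With library size alone the calls of Znrf3 and Fzd4 were lost. Fzd7 was lower with the Bap1 guide among CCl4 livers, at 9.67, 9.62 and 10.2 CPM against 17.3, 16.6 and 15.9 CPM (log2 fold change -0.76, SE 0.103, edgeR adjusted p = 0.0249), the only gene of this list called between guides there. The call was kept in 11 of 17 other settings, being lost with the replicate block, without any 1 of the 3 NTC-CCl4 livers, without sgBap1-CCl4 replicate 1, and without the liver with fat cell genes (-0.74, adjusted p = 0.0592). Between guides, 7 of the 16 had an unadjusted edgeR p under 0.05 with vehicle and 7 with CCl4, against 12.6% and 13.4% of all genes. Only 3 of the 16 leaned higher with the Bap1 guide with vehicle, and 6 with CCl4. Averaged over treatments, 2 of the 16 were called lower and 0 higher, where 0.529% of all genes were called. Among 6 tested inhibitors the secreted Frzb rose (3.21 and 3.58) and Notum (-2.39 and -2.503) and Nkd1 (-0.63 and -0.63), both of them Wnt targets, fell, the calls of Nkd1 being lost with library size alone. That makes 1 risen and 2 fallen in NTC livers and, with Dkk3 (1.17), 2 risen and 2 fallen in sgBap1 livers, or 2 and 1, and 3 and 1, with library size alone. Without the liver with fat cell genes Dkk3 was not called (0.74, adjusted p = 0.0637).

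Genes that Wnt signals switch on in pericentral hepatocytes fell together. Of 14 tested 13 fell and 0 rose with CCl4 with either guide (medians -2.39 and -2.74), and 11 and 9 fell with library size alone. Without the liver with fat cell genes 12 fell in sgBap1 livers. Lgr5, Znrf3 and Nkd1 of this list were already counted above, with the Wnt receptors or the inhibitors. Axin2, the most general Wnt target, was at 10.7 and 16.2 CPM in NTC-Veh and 2.58, 5.54 and 3.98 CPM in NTC-CCl4 livers (log2 fold change -1.74, SE 0.28, edgeR adjusted p = 0.000562), and 11.2 and 9.06 CPM in sgBap1-Veh and 1.53, 1.9 and 1.55 CPM in sgBap1-CCl4 livers (log2 fold change -2.604, SE 0.297, edgeR adjusted p = 5.19e-05). Glul, glutamine synthetase, fell from 1673 ± 207 to 90.1 ± 5.06 CPM (SD, n = 2 and 3) in NTC livers (log2 fold change -4.21, SE 0.48, edgeR adjusted p = 0.000124) and to 102 ± 70.8 CPM in sgBap1-CCl4 livers (log2 fold change -3.77, SE 0.47, edgeR adjusted p = 0.000201). Cyp2e1 fell from 9745 ± 644 to 186 ± 46.6 CPM in NTC livers (log2 fold change -5.71, SE 0.34, edgeR adjusted p = 1.91e-06) and with sgBap1 likewise (log2 fold change -6.08, SE 0.34, edgeR adjusted p = 1.21e-06). These are transcripts of the hepatocytes that CCl4 injures, and loss of those cells and a weaker Wnt signal cannot be told apart here. None of the 14 was called between guides.

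**Figure D4:**
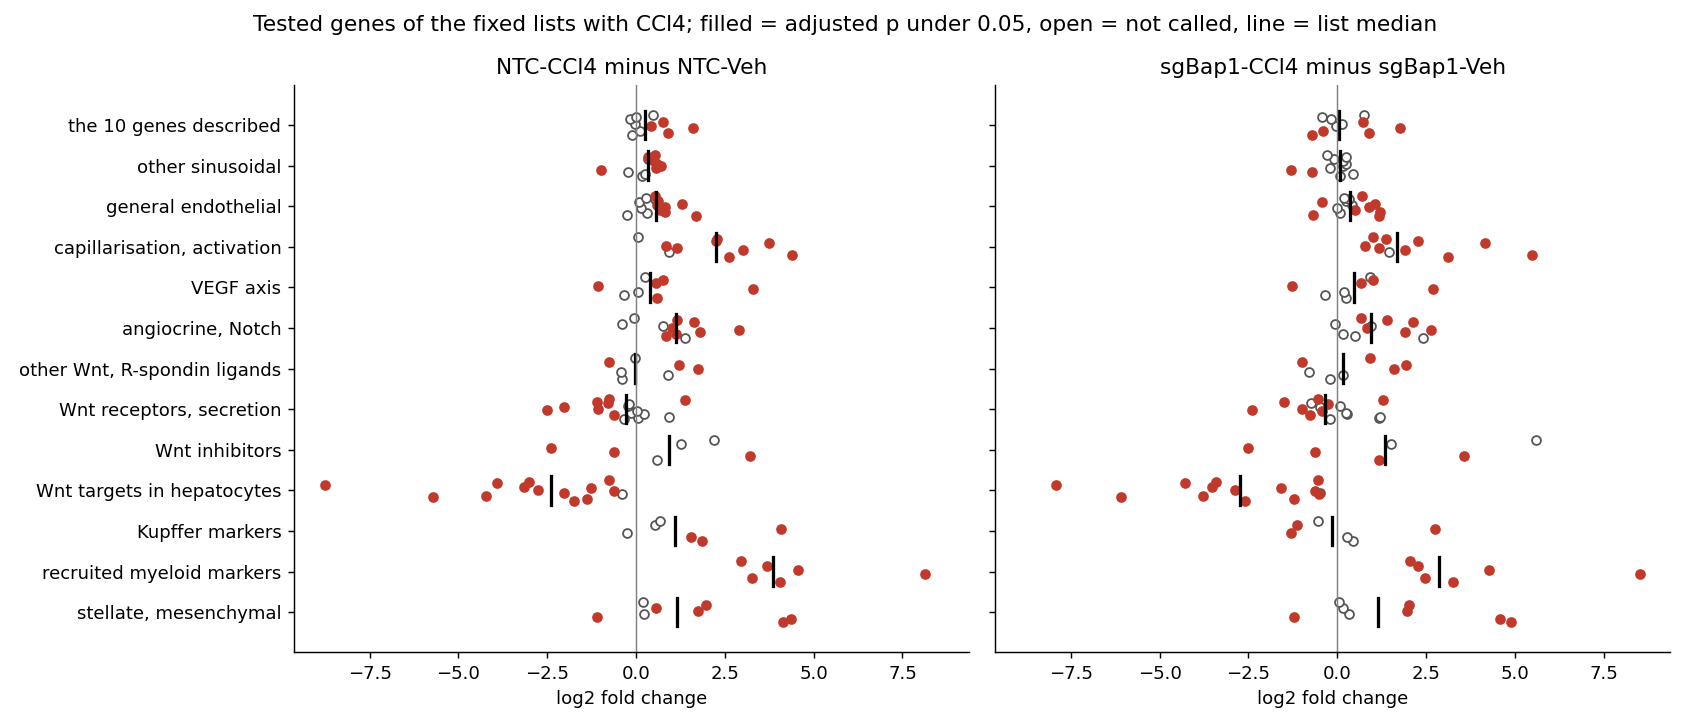
log2 fold change with CCl4 (horizontal axis, linear) of the tested genes in each list, in NTC livers on the left and sgBap1 livers on the right, with filled points called at an adjusted p under 0.05 and the list median as a line. Medians of the activation list lie at 2.26 and 1.68 and those of the hepatocyte Wnt targets at -2.39 and -2.74, and the median of the 10 genes described here at 0.26 and 0.043; with library size alone all values shift to the right by about 0.5, which turns single genes such as Kdr.

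Markers of other liver cells moved in the same livers. The 6 markers of recruited myeloid cells all rose with CCl4 with either guide, their sum being 54.97 to 74.7 CPM in NTC vehicle livers and 564 to 723 CPM in NTC-CCl4 livers. With sgBap1 the sum was 111 to 139 CPM with vehicle and 553 to 805 CPM with CCl4. The 6 Kupffer cell markers summed to 161 to 268, 455 to 885, 339.9 to 515 and 437 to 638 CPM in this order, 3 rising in NTC livers, and 1 rising and 2 falling in sgBap1 livers (2 and 1 with library size alone). The 8 stellate and mesenchymal markers summed to 259 to 307, 451 to 563, 304 to 329 and 446 to 946 CPM, 5 rising and 1 falling in NTC livers and 4 rising and 1 falling in sgBap1 livers. The 4 lymphatic markers summed to 138 to 196, 106 to 132, 137 to 158 and 83.3 to 113 CPM. The sums do not stand for each marker. With CCl4, 2 of the 4 log2 fold changes were positive in NTC livers (median 0.48) and 3 of the 4 in sgBap1 livers (median 0.81). Of the 4 only Prox1, which hepatocytes also make, was called, lower in sgBap1 livers (log2 fold change -0.601, SE 0.196, edgeR adjusted p = 0.0245), and the call was lost with library size alone. The lymphatic chemokine Ccl21a, named as a defining marker, was at 0 to 3.32 CPM, the highest being in the liver with fat cell genes. The 6 hepatocyte markers, Alb among them, summed to 116653 to 145057, 70204 to 80591, 104778 to 108638 and 64469 to 82633 CPM. Of these 5 fell in NTC livers and 2 in sgBap1 livers, or 3 in NTC livers, and 2 with 1 rise in sgBap1 livers, with library size alone. Macrophages can make Stab1 and Lyve1, and the part of myeloid cells, or of fewer hepatocytes, in their rise was not tested. Between guides with vehicle, all 6 Kupffer markers leaned higher with the Bap1 guide (median log2 fold change 0.94) and none was called. Of these, 4 had an unadjusted edgeR p under 0.05, against 12.6% of all genes. The part of Kupffer cells in the lean of the sinusoidal markers there was not tested.

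Over the 10 livers, the genes whose log2 CPM ran most closely with each member were listed from 12020 others with a mean of at least 100 counts. Vehicle and CCl4 livers form separate clusters for several of these genes, and livers also share their scaling, so Pearson's r here is a description across 10 livers. For Clec4g the closest were Dnase1l3 (0.93), Stoml2 (0.89) and Lonrf1 (0.88), the first a sinusoidal nuclease. For Oit3 they were Bank1 (0.94), Gpihbp1 (0.92) and Mrc1 (0.9001), where Gpihbp1 anchors lipoprotein lipase to capillary endothelium and Mrc1 is the mannose receptor of sinusoidal cells. For Kdr they were Ptprb (0.92), Rab23 (0.92) and Csrp2 (0.902), where Ptprb is an endothelial phosphatase, and for Wnt9b Wbp11 (0.89), Tek (0.88) and Nbea (0.86), where Tek is the TIE2 receptor. The closest to Stab1 were Ybx3 (0.99), Tgfb1i1 (0.99) and Sema3f (0.99), to Stab2 Sertad2 (0.94), Mfhas1 (0.94) and Adamts7 (0.91), to Lyve1 Ppp4r1 (0.99), Tmem71 (0.99) and Dgcr8 (0.99) and to Flt1 Vamp3 (0.99), Far1 (0.98) and Celf2 (0.98). For Wnt2 they were Rassf4 (0.81), Kmt2d (0.78) and Gm2a (0.76), and for Rspo3 Zbtb11 (0.94), Tarbp2 (0.94) and Dnajb1 (0.93), and none of these last 18 is in a list used here.

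Among the 10 themselves, the 45 pairs had a median r of 0.33 over the livers, from -0.64 (Lyve1 and Clec4g) to 0.97 (Stab1 and Flt1). The 3 pairs among Stab1, Lyve1 and Flt1 were the only ones over 0.8, joined by Clec4g and Wnt2 (0.81) without the liver with fat cell genes, and Stab1 and Stab2 were at -0.45. After each group's mean was taken off, the median was 0.39, Stab1 and Stab2 were at 0.45, Stab1 and Flt1 at 0.78, and the highest were Stab1 with Wnt9b (0.89), Stab1 with Wnt2 (0.88) and Wnt2 with Wnt9b (0.87), while Stab1 and Lyve1 were at -0.042. Stab1, Wnt2 and Wnt9b were each higher in replicate 1 than in replicate 2 of each vehicle group and highest among sgBap1-CCl4 livers in the liver with fat cell genes. The r values after taking off group means were not recomputed without that liver.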

How the data were processed

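Bulk RNA-seq of 10 mouse livers, each library from 1 liver, was analysed. According to the labels and methods, the authors made stranded poly(A) libraries, aligned the reads to GRCm38 with STAR (2.7.6a) and quantified genes with Salmon (1.4.0). Whether the quantification used strand is not given in the sources used here. The values the authors deposited are expected counts per gene, without normalization. They were rounded, and groups were taken from the labels.

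Fits were made in edgeR 4.0.16 under R 4.3.3: filterByExpr, TMM factors, robust quasi-likelihood fit of 1 model with 4 groups, two-sided tests and Benjamini-Hochberg adjustment. DESeq2 (1.42.0), the tool of the study, was an alternative. Log2 CPM had a prior count of 2. A floor of 3 counts lay between 0.0511 and 0.112 CPM by library, and this floor speaks only to counting error. The 95% intervals of fold changes come from the fit and carry the spread between livers. Replicates correlated at 0.977 to 0.988 (Pearson, log2 CPM). The fit was tested on simulated data in which few genes changed, evenly up and down, so the scaling was not tested by it. The genes, lists and alternatives were chosen with earlier results of these data known. Named are the 10 genes, for each the 3 genes most like it, from each list up to 4 called genes with the largest change per comparison, and Pecam1, Cdh5, Vegfa, Axin2, Glul, Lgr5, Cyp2e1, Fzd4, Lgr4, Znrf3, Wls and Bap1 in any case. The promoter motifs were chosen by hand.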

Additional observations from a re-analysis of the deposited data

How the results depend on the processing

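Each comparison was recomputed with DESeq2 size factors, library size alone, no filter beyond 1 count, a mean of at least 10 counts, DESeq2's Wald test, only the groups compared (pairwise comparisons alone), a replicate block, and each liver left out (a lone liver being assumed to vary like the others). Lyve1, Stab1 and Flt1 stayed called with CCl4 with both guides in all 17 of these. The number of the 10 called was 4 in NTC livers (3 to 6) and 5 in sgBap1 livers, where it was 3 with no filter, and 3 to 6 with a liver left out, the lowest without sgBap1-Veh replicate 1, sgBap1-CCl4 replicate 1 or sgBap1-CCl4 replicate 2. With library size alone the log2 fold change of Rspo3 in NTC livers was 0.44, that of Oit3 in sgBap1 livers 0.43 and that of Kdr in sgBap1 livers 0.078, each of opposite sign to TMM scaling, because that scaling moves all genes with CCl4. Between guides, averaged over treatments or not, and in the interaction none of the 10 was called in any setting. Replicate numbers did not pair the livers (correlations of deviations -0.149 to 0.102), and with the replicate block 3 were called in NTC and 4 in sgBap1 livers, Oit3 and Kdr being lost, and genes called between guides went from 89 to 1 with vehicle and from 43 to 3 with CCl4. The ratio to general endothelial genes was lower with CCl4 for 6 of 10 (61.0% and 45.7% of all genes), and for 9 and 8 against Pecam1 and Cdh5 (80.1% and 72.8% of all genes). Wnt2 and Wnt9b had the fewest estimated counts of the 10 (47 to 160 and 14 to 212 per liver) and also differed widely between replicates.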
